A study of Mus musculus with 9 samples.

Results

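The insulin-like growth factor (IGF) family was followed in mouse brain through 10 genes: the ligands Igf1 and Igf2, the receptors Igf1r and Igf2r, and the binding protein genes Igfbp2, Igfbp3, Igfbp4, Igfbp5, Igfbp6 and Igfbp7. They were chosen by gene symbol in the platform annotation, each was read by 1 probe set, and they made up 10 of the 22206 probe sets, which named 19505 genes. Signals were measured on 9 Clariom S arrays, 3 per group, all from the brain of male mice on standard chow. In the first group, ob/ob mice received VE, an extract of Vigna umbellata (rice bean), at 100 mg/kg by oral gavage for 42 days. In the second group, ob/ob mice received vehicle by the same route over the same time. In the third group, C57BL/6JHamSlc-+/+ mice, here called wild type, received vehicle. Mice with the ob/ob genotype carry inactivating changes in both copies of the leptin gene in every cell, so their obesity and lifelong lack of leptin cannot be told apart in these data. Replicates are separate mice only as far as the labels say, no females were used, and no wild-type mice given VE were analysed here.

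IGF1 and IGF2 are small secreted proteins related to insulin, and both signal through IGF1R, a receptor tyrosine kinase that acts through IRS adaptors, phosphoinositide 3-kinase and AKT. IGF2R, which is also the mannose 6-phosphate receptor, takes IGF2 up for breakdown in lysosomes, and the binding proteins hold the ligands outside cells and either limit or prolong their action. In the adult rodent brain, Igf2 RNA is known chiefly from the choroid plexus, the leptomeninges and blood vessel walls, and Igf2 is an imprinted gene, read from the paternal copy in most other tissues.

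The sequences at the starts of Igf2, Igfbp5 and Igfbp2 are shown because these genes had the largest differences of the family between ob/ob and wild-type brain. Each runs 5′ to 3′ on the gene's own strand over 250 bases before and 50 after an annotated start, from RefSeq on GRCm38.p6, with the letters of each GC box (GGGCGG on either strand) and of each TATA box (TATAAA on either strand) in capitals. Igf2 (chr7:142657447-142657746, minus strand, 1 of its 4 annotated starts), Igfbp2 (chr1:72824230-72824529, plus strand, 1 of 2) and Igfbp5 (chr1:72874816-72875115, minus strand, its 1 start) read as follows.
Igf2: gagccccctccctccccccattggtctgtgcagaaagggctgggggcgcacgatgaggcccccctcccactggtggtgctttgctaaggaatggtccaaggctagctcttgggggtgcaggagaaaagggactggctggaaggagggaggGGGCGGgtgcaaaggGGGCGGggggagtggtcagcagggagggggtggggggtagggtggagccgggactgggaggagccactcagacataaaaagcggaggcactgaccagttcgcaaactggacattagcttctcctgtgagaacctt
Igfbp2: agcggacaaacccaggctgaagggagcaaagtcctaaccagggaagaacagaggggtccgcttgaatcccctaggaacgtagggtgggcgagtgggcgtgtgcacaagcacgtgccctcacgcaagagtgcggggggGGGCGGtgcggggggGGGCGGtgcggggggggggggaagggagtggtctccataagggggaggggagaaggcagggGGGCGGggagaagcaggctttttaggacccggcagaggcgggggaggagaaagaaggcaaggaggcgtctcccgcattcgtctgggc
Igfbp5: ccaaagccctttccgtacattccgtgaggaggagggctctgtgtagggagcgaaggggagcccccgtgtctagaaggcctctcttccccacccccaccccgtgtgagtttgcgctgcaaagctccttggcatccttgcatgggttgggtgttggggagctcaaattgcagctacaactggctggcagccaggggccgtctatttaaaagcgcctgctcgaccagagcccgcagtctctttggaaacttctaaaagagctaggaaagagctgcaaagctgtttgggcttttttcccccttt
The Igf2 window held 2 GC boxes, the Igfbp2 window held 3, and the Igfbp5 window held neither GGGCGG nor TATAAA on either strand. GC boxes were in 35.7% and TATAAA in 13.6% of the 32851 annotated windows of the same length. Of the 14 family windows, 6 held a GC box, and these belonged to 5 of the 10 genes. The E-box letters CACGTG, present in 7.15% of all windows, occurred once in the Igfbp2 window shown, and CAAAACA on either strand, the core of an insulin response element and present in 6.28% of all windows, was in no window of the family. No match overlapped another in the 3 windows shown. GC content of the windows shown was 63.3% for Igf2, 67.0% for Igfbp2 and 56.3% for Igfbp5, against a median of 52.7% over all windows. The other Igf2 windows had 52.3%, 49.7% and 64.7%, and the other Igfbp2 window had 57.3%. Igfbp2 and Igfbp5 are neighbouring genes on chromosome 1 that are read from opposite strands, Igfbp3 lies beside Igfbp1 on chromosome 11, and Igf2 lies beside the insulin gene Ins2 on chromosome 7.

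VE array 2 stood apart from the rest: it correlated with each of the other 8 at r = 0.962 to 0.970, while pairs of those 8 reached 0.979 to 0.993, and its log2 signals had an SD of 2.38 (2.56 to 2.84 on the rest). Differences that involve VE are therefore also given with VE array 2 left out. Neuronal marker genes were bright on every array (10 genes, mean log2 signal 12.91 to 14.50 with VE, 13.69 to 14.16 in ob/ob vehicle and 14.42 to 14.68 in wild type), as fits the label of brain. The series text also names white adipose tissue, and 7 adipocyte marker genes averaged 5.83 to 6.17 with VE, 5.99 to 6.02 in ob/ob vehicle and 5.95 to 6.10 in wild type, below the median of 7.13 over all probe sets.

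Of the ligands, Igf2 was lower in ob/ob brain than in wild-type brain. Its log2 signal was 11.48, 10.32 and 10.86 on the 3 ob/ob vehicle arrays and 12.85, 12.59 and 12.97 on the 3 wild-type arrays. Every ob/ob array lay more than 1 log2 unit below every wild-type array. The mean fell to 10.89 ± 0.580 in ob/ob vehicle, against 12.80 ± 0.194 in wild type (SD, n = 3 each). This is a change of -1.92 (SE 0.281, 95% interval -2.52 to -1.31), or 3.78-fold lower signal, with a limma adjusted p of 0.0193, the rank 14 of 22206 probe sets by p. With VE, the 3 arrays read 11.82, 11.73 and 11.25. All of these lay below the wild-type arrays, and the lowest lay below the highest ob/ob vehicle array. Against ob/ob vehicle the VE difference was 0.71 (SE 0.281, 95% interval 0.11 to 1.32, limma adjusted p 0.285, 0.65 without VE array 2). It rested in part on ob/ob array 2, without which it was 0.43, and without ob/ob array 1 it was 1.01. Against wild type it was -1.20 (SE 0.281, limma adjusted p 0.129, and -1.27 with 0.0780 without VE array 2). The ob/ob call was lost when ob/ob array 2 or 3 or any 1 wild-type array was left out (limma adjusted p 0.0845 to 0.143). Those fits called 0 to 20 of all 22206 probe sets, against 281 with all arrays. The Igf2 change stayed between -2.21 and -1.62 under every alternative run. The differences of ob/ob vehicle from wild type and of VE from ob/ob vehicle share the same 3 ob/ob vehicle arrays, here and for every gene below.

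Igf1, which in the body is made largely in liver under growth hormone and in brain by neurons and glia, differed little between ob/ob and wild type. Its signal was 8.64, 8.38 and 8.60 with VE, 8.03, 8.05 and 8.28 in ob/ob vehicle and 8.58, 8.08 and 8.06 in wild type. The ob/ob and wild-type arrays overlapped, and the difference was -0.12 (SE 0.210, 95% interval -0.57 to 0.33, limma adjusted p 0.778). All 3 VE arrays lay above all 3 ob/ob vehicle arrays, by 0.42 on average (SE 0.210, 95% interval -0.03 to 0.87, limma adjusted p 0.414, 0.50 without VE array 2), which did not pass the test. Wild-type array 1 read as high as the VE arrays, and VE minus wild type was 0.30 (limma adjusted p 0.573), 0.38 without VE array 2 and 0.47 without wild-type array 1.

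**Figure D1:**
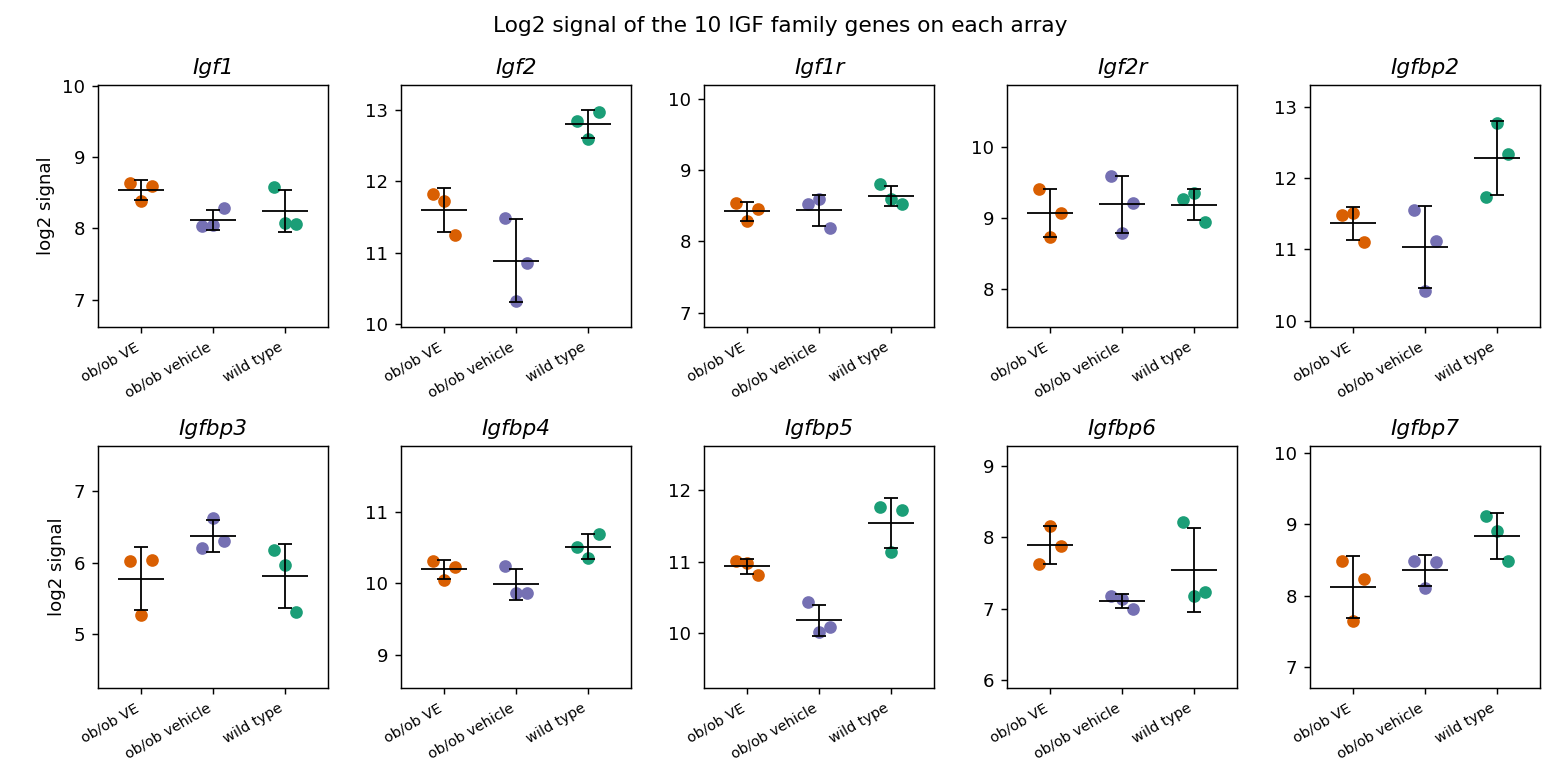
Log2 signal (y axis) of the 10 IGF family genes on each of the 9 arrays, with VE left, ob/ob vehicle in the middle and wild type right in each panel; points are arrays, long bars group means and error bars 1 SD (n = 3). Igf2 shows 3 ob/ob vehicle points at 10.32 to 11.48 below 3 wild-type points at 12.59 to 12.97, and Igfbp5 shows the 3 groups without overlap.

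The receptors showed no difference that passed the test. Igf1r, the signalling receptor, had 8.54, 8.28 and 8.45 with VE, 8.53, 8.59 and 8.19 in ob/ob vehicle, and 8.80, 8.60 and 8.52 in wild type. The groups overlapped, and the ob/ob difference of -0.20 had an interval of -0.63 to 0.23 (SE 0.199, limma adjusted p 0.597). VE minus ob/ob vehicle was -0.01 (95% interval -0.44 to 0.42) and 0.06 without VE array 2, and its sign also changed with the scaling of the arrays. Igf2r, the uptake receptor for IGF2, had 9.41, 8.74 and 9.07 with VE, 9.59, 8.79 and 9.21 in ob/ob vehicle and 9.27, 9.35 and 8.95 in wild type. The 3 groups overlapped throughout, with 0.01 for ob/ob minus wild type (SE 0.252, 95% interval -0.54 to 0.55) and -0.12 for VE minus ob/ob vehicle (95% interval -0.67 to 0.42, 0.04 without VE array 2). Centring each array on its median gave -0.07 and 0 for these Igf2r differences, so no direction is given. The intervals of the receptors still allow a fall of 0.63 (Igf1r, ob/ob) or of 0.67 (Igf2r, VE) log2 units.

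Among the binding proteins, Igfbp5 was lower in ob/ob brain. IGFBP5 binds both ligands and also binds extracellular matrix. Its signal was 10.43, 10.02 and 10.08 in ob/ob vehicle and 11.77, 11.14 and 11.73 in wild type. The arrays of the 2 groups did not overlap, and the means were 10.18 ± 0.221 in ob/ob vehicle and 11.55 ± 0.353 in wild type (SD, n = 3 each). Igfbp5 fell by 1.37 (SE 0.223, 95% interval -1.85 to -0.89), which is 2.58-fold lower signal, with a limma adjusted p of 0.0257 and rank 30 by p. The VE arrays read 11.01, 10.98 and 10.82. They lay above every ob/ob vehicle array and below every wild-type array, an order that 107 of 22206 probe sets showed (0.482%) and that Igfbp5 alone showed among the 10 genes. VE minus ob/ob vehicle was 0.76 (SE 0.223, 95% interval 0.28 to 1.24, unadjusted p 0.00470, limma adjusted p 0.149), and 0.74 without VE array 2 (adjusted p 0.104). VE minus wild type was -0.61 (SE 0.223, limma adjusted p 0.301), and -0.63 without VE array 2. The call against wild type was lost when any 1 ob/ob vehicle or wild-type array was left out (limma adjusted p 0.0540 to 0.169). Those fits called 0 to 21 of all 22206 probe sets, against 281 with all arrays. The Igfbp5 change lay between -1.57 and -1.10 under every alternative run.

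Igfbp2, a binding protein made in the brain by astrocytes and choroid plexus, had lower values in ob/ob brain that just missed the test. Its signal was 11.55, 10.41 and 11.12 in ob/ob vehicle and 11.73, 12.77 and 12.33 in wild type. The groups did not overlap, but the highest ob/ob and lowest wild-type arrays were close. The difference was -1.25 (SE 0.313, 95% interval -1.93 to -0.57, unadjusted p 0.00154, limma adjusted p 0.0660). It passed at an adjusted p of 0.0125 when VE array 2, which belongs to neither group, was left out, at 0.0185 with the 2 groups fitted alone, and at 0.0404 after median centring. It stayed above the threshold with quantile normalization (-0.97, adjusted p 0.140) and with cyclic loess (-0.96, adjusted p 0.113). The same held when any 1 ob/ob vehicle or wild-type array was left out (limma adjusted p 0.0761 to 0.221). Of 19 alternatives, 6 passed and 13 did not. The VE arrays, at 11.48, 11.51 and 11.10, fell within the ob/ob vehicle range, with a difference of 0.34 (SE 0.313, limma adjusted p 0.695, 0.26 without VE array 2). This value turned on the spread of the ob/ob vehicle arrays, being 0.03 without ob/ob array 2 and 0.60 without ob/ob array 1. They were below all wild-type arrays, at -0.91 (SE 0.313, limma adjusted p 0.269, -0.99 without VE array 2).

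Igfbp4, a binding protein that the protease pappalysin cleaves to free its ligand, had values of 10.24, 9.87 and 9.86 in ob/ob vehicle and 10.51, 10.35 and 10.69 in wild type. The groups did not overlap, yet the difference of -0.53 (SE 0.202) did not pass (unadjusted p 0.0214, limma adjusted p 0.172). With VE it read 10.31, 10.05 and 10.23, all below wild type and overlapping ob/ob vehicle. VE minus ob/ob vehicle was 0.21 (0.28 without VE array 2) and VE minus wild type -0.32 (-0.25 without it). Igfbp6, which prefers IGF2 over IGF1, showed its separation in the VE comparison instead. It read 7.63, 8.16 and 7.88 with VE and 7.18, 7.14 and 7.0 in ob/ob vehicle. The 3 VE arrays were all higher, by 0.78 (SE 0.273, 95% interval 0.19 to 1.37, unadjusted p 0.0132, limma adjusted p 0.225), and by 0.65 without VE array 2. The wild-type arrays, at 8.22, 7.17 and 7.23, spread over both ranges. Ob/ob minus wild type was -0.43 (limma adjusted p 0.393), and -0.09 without wild-type array 1. VE minus wild type was 0.35 (limma adjusted p 0.616) and 0.22 without VE array 2, and leaving out a wild-type array gave 0.17 to 0.69.

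Igfbp3, the main carrier of IGFs in blood, had the opposite pattern to most of the family, with values of 6.02, 5.26 and 6.04 with VE, 6.20, 6.62 and 6.30 in ob/ob vehicle, and 6.17, 5.97 and 5.31 in wild type. The ob/ob vehicle arrays were the highest 3 of the 9. Neither ob/ob minus wild type (0.56, SE 0.277, limma adjusted p 0.280) nor VE minus ob/ob vehicle (-0.60, SE 0.277, unadjusted p 0.0497, limma adjusted p 0.374) passed. The first was 0.30 without wild-type array 3, and the second was -0.34 without VE array 2. Its mean signal was among those of the dimmest 7402 probe sets, over which the median ob/ob difference was 0.17. Igfbp7, a secreted vessel-associated protein that binds IGFs only weakly, read 8.49, 7.65 and 8.24 with VE, 8.49, 8.11 and 8.47 in ob/ob vehicle and 9.12, 8.91 and 8.49 in wild type. Ob/ob vehicle minus wild type was -0.48 for Igfbp7 (unadjusted p 0.0810, limma adjusted p 0.307). Its VE minus wild type difference of -0.71 (SE 0.256, unadjusted p 0.0153, limma adjusted p 0.290) became -0.48 without VE array 2, the array with its lowest value, and VE minus ob/ob vehicle was -0.23 with that array and 0.01 without it.

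**Figure D2:**
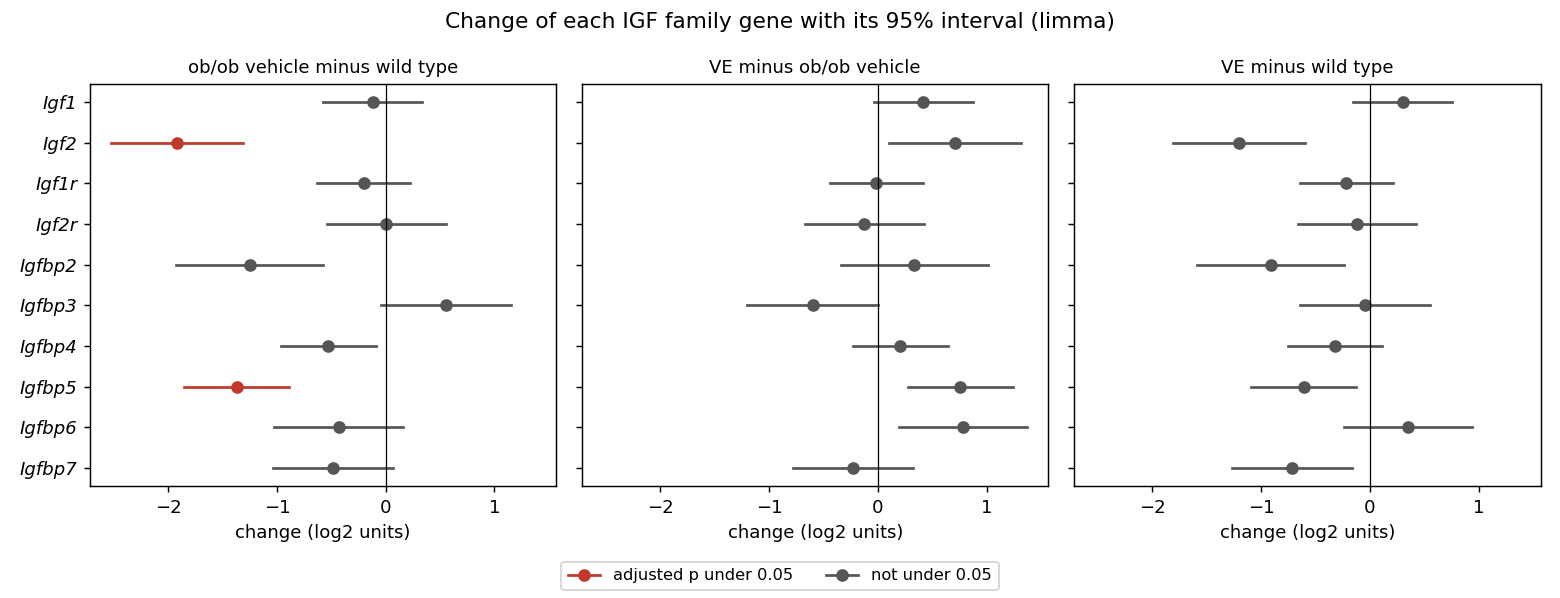
Change of each IGF family gene (x axis, log2 units) in ob/ob vehicle minus wild type, VE minus ob/ob vehicle and VE minus wild type; points are limma estimates and bars 95% intervals (n = 3 arrays per group). Igf2 at -1.92 and Igfbp5 at -1.37 in the first panel are the 2 changes that passed an adjusted p of 0.05.

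Counted over the family, ob/ob vehicle minus wild type had 2 of 10 genes called lower and 0 called higher by limma, against 0.73% of all probe sets called lower, 0.536% called higher and 1.27% called in either direction. At an unadjusted p under 0.05, 4 of 10 were lower (Igf2, Igfbp2, Igfbp4 and Igfbp5), against 10.2% of all probe sets. The groups did not overlap for 4 lower genes and 1 higher gene, against 17.5% and 15.8% of all probe sets. All 4 lower genes were among the brightest 7402 probe sets, of which 20.2% were lower at an unadjusted p under 0.05, 35.1% were lower without overlap and 1.54% were called lower. The median difference of the 10 genes was -0.46, against 0.02 over all probe sets and -0.27 over the brightest 7402, to which 6 of the 10 genes belonged. Without VE array 2, which belongs to neither group, 3 of 10 were called lower, and so were 1594 of the 22206 probe sets. In VE minus ob/ob vehicle, limma called 0 of 10 genes, against 0.486% of all probe sets, of which nearly all were lower. At an unadjusted p under 0.05, 3 were higher (Igf2, Igfbp5 and Igfbp6) and 1 was lower (Igfbp3), against 3.21% and 10.1% of all probe sets. Non-overlapping groups were found for 3 higher genes (Igf1, Igfbp5 and Igfbp6) and 1 lower gene, against 4.62% and 11.9%. The median difference was 0.27, against -0.07 over all probe sets. With VE array 2 left out limma still called 0, with 4 higher and 0 lower at an unadjusted p under 0.05. Of the 22206 probe sets, 1909 were higher and 2236 lower at that p in the same fit. In VE minus wild type, limma called 0 of 10, against 0.0991% of all probe sets. At an unadjusted p under 0.05, 4 were lower (Igf2, Igfbp2, Igfbp5 and Igfbp7), against 9.21%, and for 4 lower genes (Igf2, Igfbp2, Igfbp4 and Igfbp5) the groups did not overlap, against 11.5%. Among the brightest 7402 these shares were 18.8% and 21.5%, and without VE array 2 limma called 0, with 3 lower at an unadjusted p under 0.05. In that fit 1469 of the 22206 probe sets were lower at that p. The design text's own rule, an unadjusted p under 0.05 with a fold over 1.1, picked 4 of the 10 genes in each comparison and 20.1%, 13.3% and 12.2% of all probe sets.

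**Figure D3:**
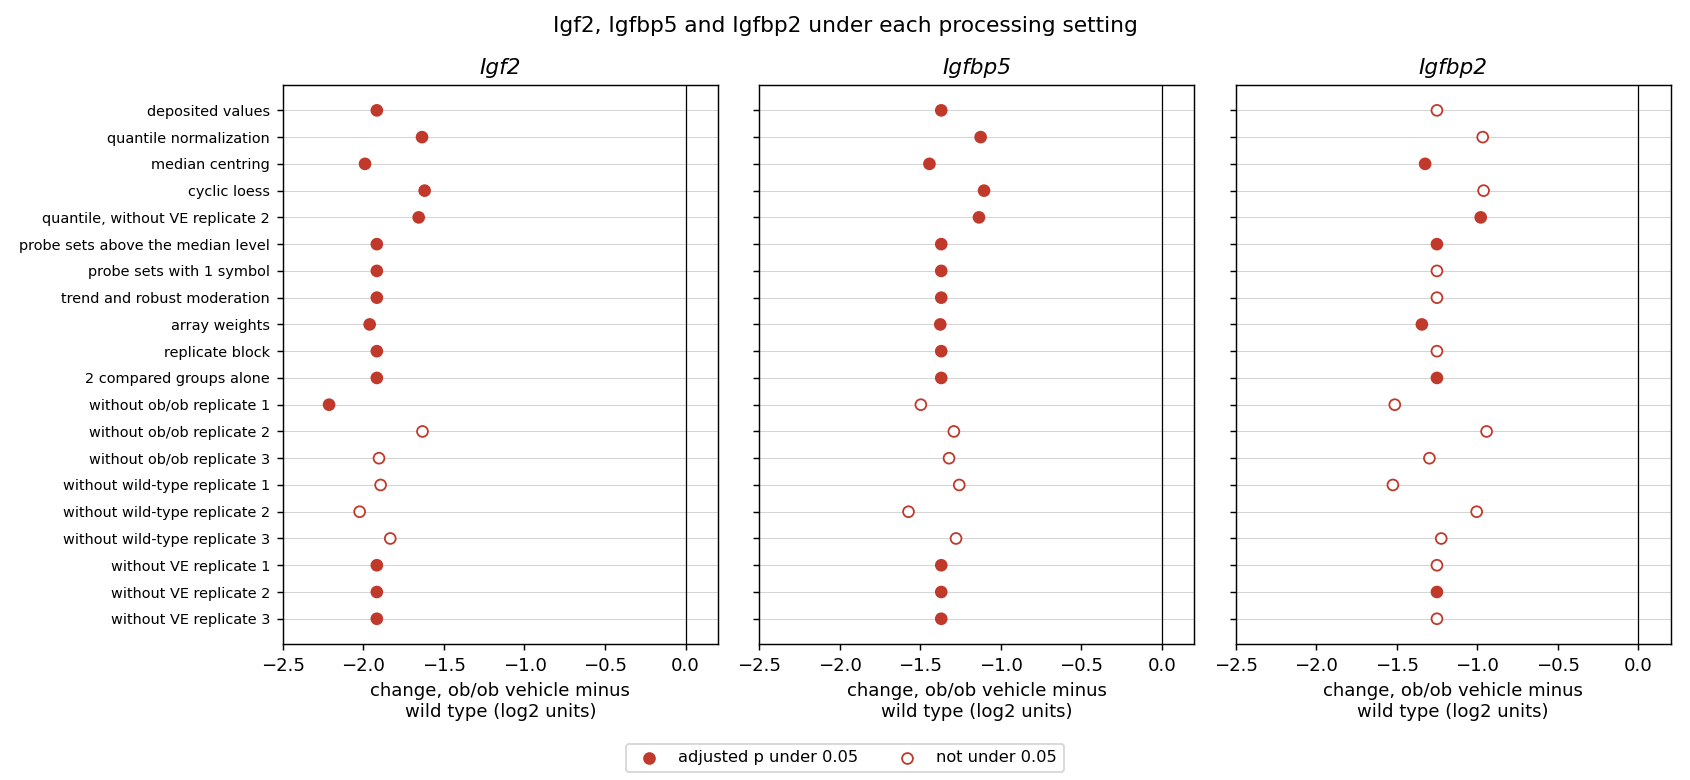
Ob/ob vehicle minus wild type difference (x axis, log2 units) of Igf2, Igfbp5 and Igfbp2 under the deposited values and each alternative (rows); filled points have a limma adjusted p under 0.05 and open points do not. Igf2 stays between -2.21 and -1.62 and Igfbp5 between -1.57 and -1.10, and their points turn open where an ob/ob or wild-type array is left out, except Igf2 without ob/ob array 1.

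Brain regions and cell types differ in how much IGF family RNA they hold, and in whole-brain RNA fewer cells of a type and less RNA per cell cannot be told apart. Marker genes of the choroid plexus epithelium were lower in ob/ob brain: 14 of 14 measured had negative differences and 3 were called, with a median of -0.84. Of all probe sets 48.6% were lower in sign and 0.73% were called lower, with a median of 0.02. Their mean log2 signal was 7.66 to 8.04 with VE, 7.14 to 7.98 in ob/ob vehicle and 8.10 to 9.09 in wild type, and the log2 of their summed signal was 15.48 to 19.26 with VE, 15.16 to 19.32 in ob/ob vehicle and 19.29 to 19.88 in wild type. That sum was nearly all Ttr, which alone read 15.41 to 19.25, 15.10 to 19.31 and 19.28 to 19.87 in the same order. In wild type Ttr was close to the highest deposited value of 19.93. Array by array, ob/ob array 2 and wild-type array 1 were the lowest of their groups for the choroid plexus markers and for Igfbp2. For Igfbp5 ob/ob array 2 was also the lowest of its group, while the lowest wild-type array was array 2, which was the highest for the choroid plexus markers. For Igf2 ob/ob array 2 was the lowest of its group, and the 3 wild-type arrays lay within 0.4 log2 units while the choroid plexus mean spread over about 1.

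Of 15 leptomeningeal fibroblast markers, 0 were called by limma and 3 were lower at an unadjusted p under 0.05, and their mean was 7.29 to 7.31 with VE, 7.25 to 7.34 in ob/ob vehicle and 7.36 to 7.69 in wild type. The log2 of their summed signal was 11.64 to 11.83 with VE, 11.87 to 12.01 in ob/ob vehicle and 11.91 to 12.09 in wild type. Markers of other brain cells had negative differences as well. All 10 neuronal genes were lower in sign, with a median of -0.53, 9 of them without overlap and 4 at an unadjusted p under 0.05, and limma called 0. Of the glial markers, 3 of 10 astrocyte genes, 2 of 9 oligodendrocyte genes and 1 of 9 microglial genes were called lower and 0 higher, with medians of -0.61, -1.18 and -0.61. Over all probe sets 0.73% were called lower and 48.6% were lower in sign, and over the brightest 7402 these shares were 1.54% and 77%. Lower without overlap were 17.5% of all probe sets and 35.1% of the brightest 7402. At an unadjusted p under 0.05, 10.2% of all and 20.2% of the brightest 7402 were lower. When VE array 2 was left out of the fit, limma called lower 3 of 10 neuronal, 4 of 14 choroid plexus, 5 of 10 astrocyte, 9 of 9 oligodendrocyte and 5 of 9 microglial genes. Calls rose over all probe sets as well, with 1594 of 22206 called lower in that fit. Mean astrocyte signal was 11.01 to 11.90 with VE, 11.35 to 11.73 in ob/ob vehicle and 12.17 to 12.29 in wild type. Among 10 endothelial and 10 pericyte and smooth muscle genes, limma called 0, with 0 and 3 lower at an unadjusted p under 0.05. Endothelial summed signal in log2 was 12.49 to 13.03 with VE, 12.30 to 12.77 in ob/ob vehicle and 12.82 to 12.90 in wild type. The endothelial mean was 7.93 to 8.16, 7.72 to 8.08 and 8.01 to 8.13 in the same order. Pericyte and smooth muscle sums were 12.06 to 12.39, 12.07 to 12.28 and 12.56 to 12.76, with Vtn the brightest gene (mean 11.77). Their means were 7.22 to 7.24, 6.90 to 7.37 and 7.27 to 7.45. For both lists the means of ob/ob vehicle and wild type thus overlapped, while the sums did not. In VE minus ob/ob vehicle no marker of these lists was called with all arrays, and the choroid plexus, leptomeningeal and astrocyte medians were 0.24, 0.10 and 0.11. Without VE array 2 these medians were 0.31, 0.11 and 0.35, and the neuronal median was 0.27, against -0.03 with it. The part of these cell types in the Igf2, Igfbp2 and Igfbp5 differences was not tested. All markers had some array signal, since log2 signals of this kind hold no true zero.

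**Figure D4:**
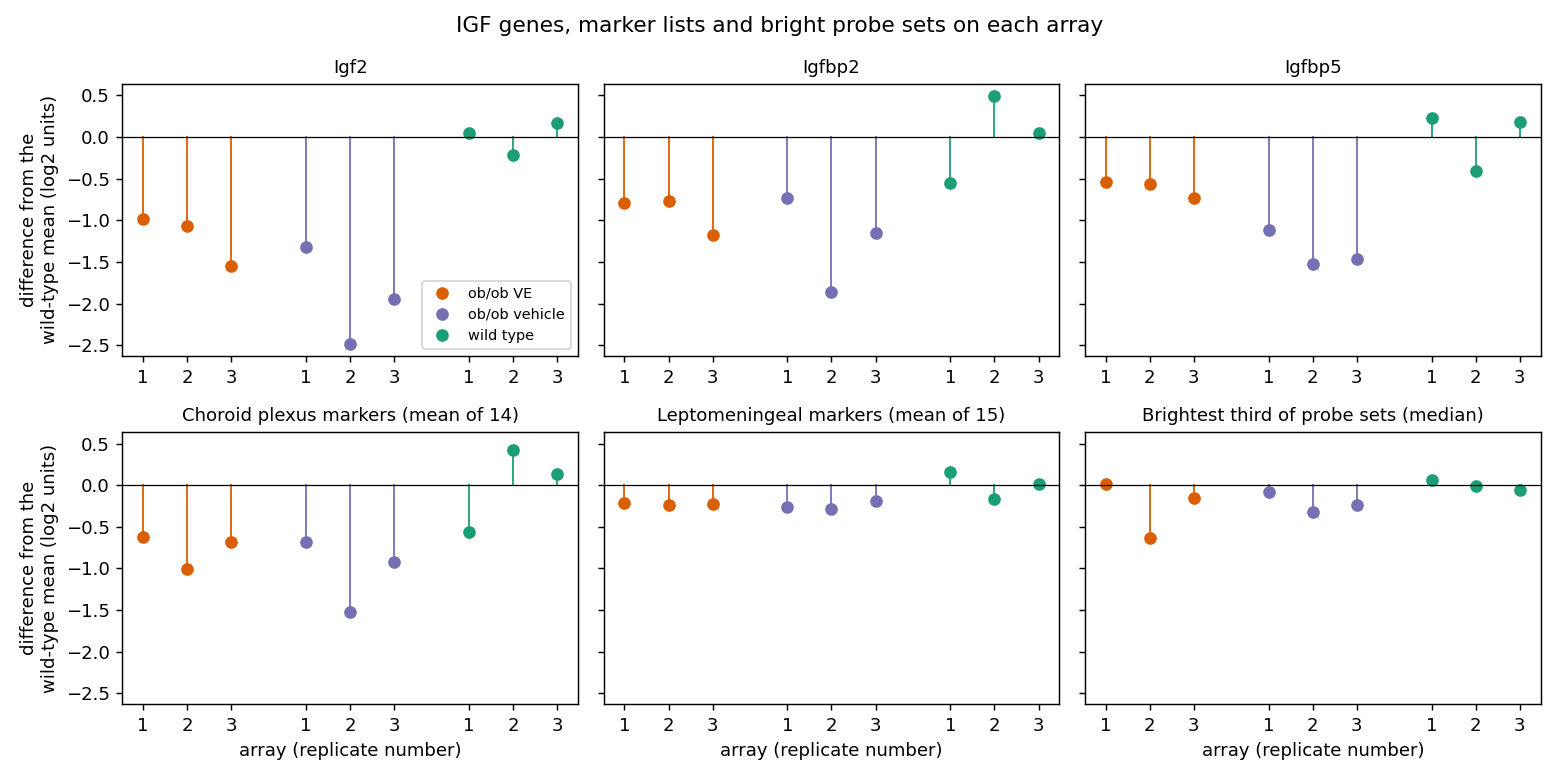
Difference of each array from the wild-type mean (y axis, log2 units) for Igf2, Igfbp2, Igfbp5, the means of the choroid plexus and leptomeningeal marker lists and the median of the brightest 7402 probe sets, with VE arrays left, ob/ob vehicle in the middle and wild type right. On ob/ob array 2, Igf2 stood at -2.48, Igfbp2 at -1.87, Igfbp5 at -1.53 and the choroid plexus mean at -1.53, against -0.32 for the brightest probe sets.

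The wider IGF pathway was read through 46 measured genes of a list of 53, from the receptors' adaptors and kinases to growth hormone, proteases and further binding proteins. Limma called 0 of 46 in ob/ob vehicle minus wild type, with 1 higher and 8 lower at an unadjusted p under 0.05 and a median of -0.24. Of all probe sets 9.88% were higher and 10.2% lower at that p, with a median of 0.02, and of the brightest 7402 these were 5.35% and 20.2%, with a median of -0.27. The lowest p values belonged to Akt1, a central kinase of the pathway (-0.78, SE 0.253, limma adjusted p 0.121), and Htra1, a secreted protease that cleaves IGF binding proteins (-0.82, SE 0.274, adjusted p 0.133). Grb2, an adaptor that links the receptor to RAS, followed at -0.68 (adjusted p 0.146), and Mtor, the kinase of the growth-controlling complexes, at -0.67 (adjusted p 0.173). For these 4 genes the groups did not overlap, and all 4 passed the test when VE array 2 was left out of the fit (limma adjusted p 0.0161 to 0.0470). In that fit 1594 of the 22206 probe sets were called lower. Akt1 averaged 11.59 with VE, 11.46 in ob/ob vehicle and 12.24 in wild type. Where the VE group stood depended on its array 2: VE minus ob/ob vehicle was 0.13 for Akt1, 0.22 for Htra1, 0.16 for Grb2 and 0.07 for Mtor with it, and 0.40, 0.47, 0.43 and 0.28 without it. VE minus wild type was likewise -0.65, -0.59, -0.52 and -0.61 for the 4 genes with it, and -0.38, -0.35, -0.25 and -0.40 without it.

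In VE minus ob/ob vehicle, limma called 0 of 46 pathway genes, with 1 higher and 2 lower at an unadjusted p under 0.05 and a median of 0.02. Of all probe sets 3.21% were higher and 10.1% lower at that p, with a median of -0.07. The list without VE array 2 had 5 higher and 3 lower at that p and a median of 0.08. All 22206 probe sets then had 1909 higher and 2236 lower at that p, with a median of -0.01. With all arrays the higher gene was Grb14, an adaptor that inhibits the insulin receptor (0.86, SE 0.296, limma adjusted p 0.219), whose means were 8.32 with VE, 7.46 in ob/ob vehicle and 8.19 in wild type. Without VE array 2 Grb14 passed the test, with a difference of 1.11 (limma adjusted p 0.0493). The lower genes were the growth hormone gene Gh (-0.62 with and without VE array 2, SE 0.202, adjusted p 0.193) and Igfbp1, a binding protein best known from liver (-0.57, SE 0.240, adjusted p 0.318). Both were dim, with means over all arrays of 5.27 for Gh and 6.11 for Igfbp1, below the median of 7.13 over all probe sets. Igfbp1 read 5.52, 5.99 and 5.95 with VE and 6.00, 6.36 and 6.82 in ob/ob vehicle, without overlap. Its difference was -0.66 without VE array 2 and -0.36 without ob/ob array 3. Pik3r2, a regulatory subunit of phosphoinositide 3-kinase, was at -0.55 (adjusted p 0.382), and at -0.28 without VE array 2. In VE minus wild type, limma called 0 of 46, with 2 higher and 9 lower at an unadjusted p under 0.05 and a median of -0.13. Of all probe sets 2.98% were higher and 9.21% lower at that p, with a median of -0.07, and of the brightest 7402 these were 0.527% and 18.8%, with a median of -0.28. Leaving out VE array 2 gave 1 higher and 5 lower at that p and a median of -0.01. All 22206 probe sets then had 786 higher and 1469 lower at that p, with a median of 0.0017. Irs2, an adaptor of the insulin and IGF1 receptors, had the lowest p (-0.84, SE 0.207, adjusted p 0.145), with means of 9.66 with VE, 10.05 in ob/ob vehicle and 10.50 in wild type, and it passed without VE array 2, at -0.98. Pik3r2 followed at -0.91 (adjusted p 0.192, -0.64 without VE array 2), with Tsc2, an inhibitor of MTOR signalling, at -0.57 (adjusted p 0.292, -0.40 without that array). Sst, the gene of somatostatin, which restrains growth hormone release, was at -1.63 (SE 0.539, adjusted p 0.255), and its VE arrays had an SD of 1.56. The Sst difference without VE array 2 was -0.74 (adjusted p 0.198).

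**Figure D5:**
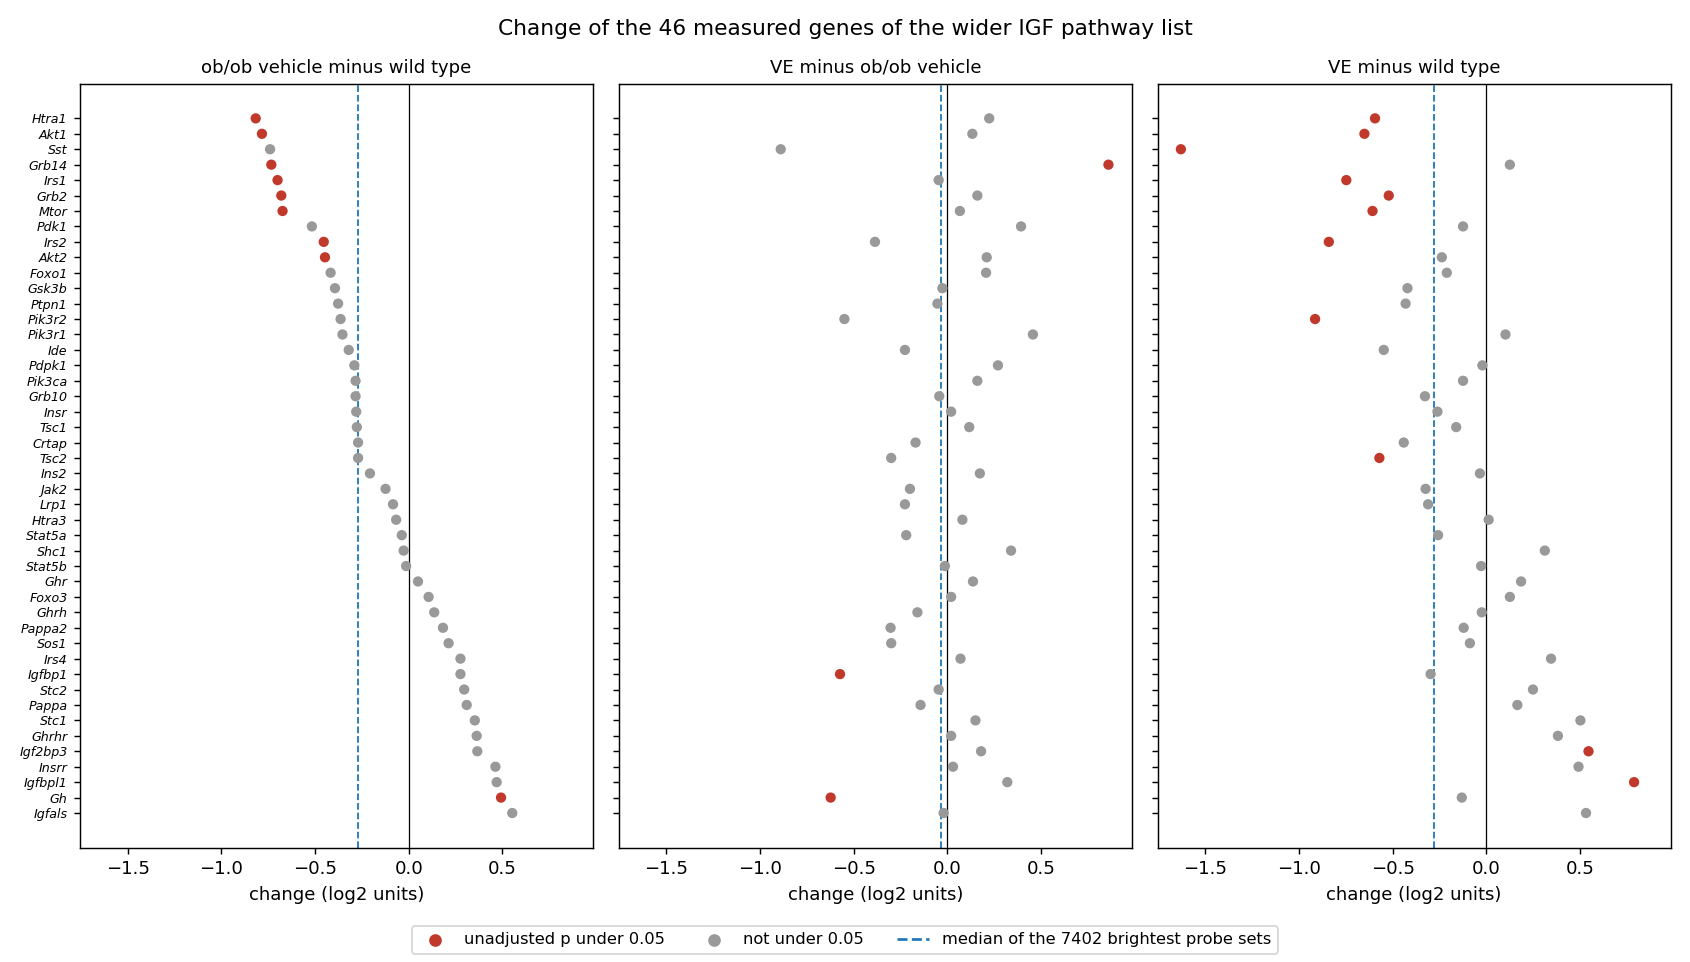
Change (x axis, log2 units) of the 46 measured genes of the wider IGF pathway list in the 3 comparisons, ordered by ob/ob vehicle minus wild type; red points have an unadjusted p under 0.05, and the dashed line is the median of the 7402 brightest probe sets. The first panel has 8 red points left of 0 and 1 right of it, and none of the 46 passed an adjusted p of 0.05 in any panel.

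Genes most like each family member over the 9 arrays were found by Pearson's r among 9241 named probe sets above the median signal. All arrays share the 3 group differences and the scaling, so r is given as a description, with its value after subtraction of the group means in parentheses. Closest to Igf2 were Grn at 0.98 (0.86), Rpn2 at 0.98 (0.93) and Dlst at 0.98 (0.84). Closest to Igfbp5 were Slc35a5 at 0.98 (0.83), Tcf7l2 at 0.98 (0.82) and Bhlhe40 at 0.97 (0.84). Closest to Igfbp2 were Ube4a at 0.96 (0.95), Otub2 at 0.95 (0.88) and Lix1l at 0.95 (0.88). No gene of the family was among the 3 nearest of another member. For Igfbp7 the nearest were Mrps10 at 0.99 (0.97), P2ry12 at 0.99 (0.97) and Mrto4 at 0.98 (0.96), of which P2ry12 is a known microglial gene. For Igfbp4 they were Sertad2 at 0.98 (0.93), Tmem134 at 0.97 (0.92) and Erlin2 at 0.97 (0.90), and for Igfbp6 Crhr1 at 0.96 (0.97), Spopl at 0.95 (0.92) and Tshz3 at 0.93 (0.86). For Igfbp3 they were Tnfsf15 at 0.95 (0.92), Zfp775 at 0.93 (0.94) and Zfp759 at 0.92 (0.90). The nearest to Igf1 were Wrn at 0.92 (0.91), Mettl9 at 0.91 (0.81) and Nova1 at 0.90 (0.84). The nearest to Igf1r were Dvl3 at 0.99 (0.99), Tbc1d13 at 0.97 (0.95) and Kbtbd4 at 0.96 (0.95), and to Igf2r Zfp934 at 0.96 (0.99), Trip12 at 0.95 (0.95) and Hdgfl2 at 0.95 (0.95).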

How the data were processed

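Brain RNA was hybridised to Clariom S mouse arrays. The deposited values are log2 signals per probe set, which the authors made with the SST-RMA algorithm (signal space transformation, then robust multichip averaging) of the Transcriptome Analysis Console, per the labels' protocols and the series' design text (version 4 per the submitters' processing notes). The array's genome build is not given in the sources used here. Symbols came from the platform annotation. Promoter sequences came from RefSeq (GRCm38.p6). All 10 family genes had a promoter window, 14 windows in all.

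One limma model (version 3.58.1, R 4.3.3) with a mean for each group took in all 9 arrays as deposited. Empirical Bayes added 7.03 prior to the 6 residual degrees of freedom, and p-values were adjusted over 22206 probe sets by Benjamini-Hochberg. A probe set was called at an adjusted p under 0.05. The number of arrays, 3 per group, limits the precision. P-values measure the spread between these samples, which may be technical where arrays are not separate mice. On simulated data with 200 changed probe sets of 22206, the fit of ob/ob vehicle minus wild type called 0% of those changed by 0.5 log2 units, 13% at 1 and 90% at 2. For VE minus ob/ob vehicle these were 0%, 15% and 91%, and for VE minus wild type 0%, 18% and 94%. The simulated noise was normal, independent between probe sets and, for each probe set, of the same SD on all 9 arrays. It held no array that stood apart as VE array 2 did, so these shares need not hold for the real arrays.

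The family members, the pathway list and the marker lists were chosen with earlier results of these data known. All members were described. From the pathway list, called genes and up to 4 with the smallest p per comparison were named, and 3 pattern neighbours per member were found. Motifs were searched and figures drawn with Python 3.11.15. Alternatives changed the scaling, the filter, the moderation, the array weights, the block, the threshold and the arrays used. The 50 mg/kg dose and the adipose tissue that the design text names were not analysed here, nor were its detection filters.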

Additional observations from a re-analysis of the deposited data

How the results depend on the processing

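The 30 member differences were recomputed under every alternative that could be run, 567 values in all: 515 kept their direction and side of the threshold, 11 lost a call, 13 gained one and 28 changed sign. All 11 lost calls came from leaving out 1 array, for Igf2 (-2.21 to -1.63 over the 9 arrays left out in turn) and Igfbp5 (-1.57 to -1.26) in ob/ob vehicle minus wild type, and fewer arrays are part of that construction. Without 1 ob/ob vehicle or wild-type array, 0 to 21 of all 22206 probe sets were called in that comparison. The count of called family genes was 0 to 3 there with any 1 array left out. With array weights it was 4 in ob/ob vehicle minus wild type (Igfbp2 and Igfbp4 added), 2 in VE minus ob/ob vehicle (Igfbp5 and Igfbp6) and 4 in VE minus wild type (Igf2, Igfbp2, Igfbp5 and Igfbp7), and with the design text's rule 4, 4 and 4. Of the 46 pathway genes, against 0 called, array weights gave 6, 5 and 9 and the design text's rule 9, 3 and 11, in the same order. Calls rose over all 22206 probe sets as well. Array weights called 3601, 3307 and 3286 of them, against 281, 108 and 22 in the deposited values. The design text's rule picked 4457, 2962 and 2707. The 2 compared groups alone gave 4 pathway genes in ob/ob vehicle minus wild type, where 2626 probe sets were called. Quantile normalization without VE array 2 gave 1 in VE minus ob/ob vehicle, where 418 probe sets were called. Leaving out 1 array gave 0 to 5, 0 to 1 and 0 to 1 pathway genes, the highest without VE array 2. Without that array 2975, 403 and 73 probe sets were called. The cause of these moves was not tested.

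None of the differences that changed sign was called in the deposited values. In ob/ob vehicle minus wild type, Igf2r was -0.0667 with median centring, -0.0036 with array weights and -0.19 to 0.21 with an array left out, Igf1 was -0.21 to 0.05 with an array left out, and Tsc2 was 0.0037 with cyclic loess. In VE minus ob/ob vehicle, Igf1r was 0.0589 with quantile normalization, 0.11 with median centring, 0.0452 with cyclic loess, 0.0190 with quantile normalization without VE array 2, 0.0427 with array weights and -0.14 to 0.0633 with an array left out. Igf2r was 0 with median centring. With an array left out, Igf2r was -0.33 to 0.0733, Igfbp7 -0.41 to 0.0083, Akt1 -0.05 to 0.40, Mtor -0.14 to 0.30 and Sst -1.42 to 0.0050. In VE minus wild type, Igf2r was 0.0952 with quantile normalization, 0.0887 with cyclic loess, 0.12 with quantile normalization without VE array 2 and -0.28 to 0.05 with an array left out. Igfbp3 was 0.0067 with median centring, 0.17 with quantile normalization without VE array 2, 0.26 with array weights and -0.30 to 0.21 with an array left out. Gh was 0.0916 with array weights, and Grb14 was -0.04 to 0.37 with an array left out.

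Replicate numbers were not shown to pair the samples: the correlations of same-numbered deviations were 0.11, -0.02 and 0.09 for ob/ob vehicle and wild type, 0.33, 0.22 and -0.02 for VE and ob/ob vehicle, and 0.12, -0.02 and -0.03 for VE and wild type. Pairs with different numbers gave -0.14 to 0.07, -0.29 to 0.11 and -0.13 to 0.11 in the same order. The 0.33 and 0.22 for VE and ob/ob vehicle thus lay above every different-numbered pair of that comparison. With the replicate number as a block, Igf2 (limma adjusted p 0.0221) and Igfbp5 (0.0275) stayed called in ob/ob vehicle minus wild type, at -1.92 and -1.37, and called probe sets numbered 251, 144 and 2, against 281, 108 and 22. Over the alternatives in scaling, filter, moderation, weights and groups fitted, that count ranged over 206 to 3601, 0 to 3307 and 0 to 3286, with the design text's rule it was 4457, 2962 and 2707, with an adjusted p under 0.1 it was 1204, 433 and 109, and with an array left out over 0 to 2975, 0 to 403 and 0 to 158. The share of higher calls in ob/ob vehicle minus wild type was 42.3%, against 60.4% with quantile normalization, 27.0% with median centring, 60.0% with cyclic loess and 53.1% with quantile normalization without VE array 2. In VE minus ob/ob vehicle it was 2.78%, against 18.5%, 12.7%, 17.3% and 28.0% in the same order. Median centring moved the median of all probe sets in VE minus ob/ob vehicle to 0.06, against -0.07. Every member had 1 probe set, so the alternative of another probe set was not run.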
